A study of Homo sapiens with 4 samples.

Results

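The histone gene cluster on chromosome 6 was defined here as the protein-coding genes of GENCODE release 44 that start in the 2.1 Mb of chromosome 6 ending at 28 Mb (hg38) and whose symbol begins with H1-, H2AC, H2BC, H3C or H4C. This rule found 53 genes of the 19970 protein-coding genes on chromosomes 1 to 22 and X. The 53 genes comprised 6 H1, 11 H2A, 14 H2B, 10 H3 and 12 H4 genes. Their occupancy and contacts were read from HiChIP of the HG00731 lymphoblastoid cell line (LCL), a B cell line of the 1000 Genomes collection grown without treatment. HiChIP joins chromatin immunoprecipitation with proximity ligation, so it gives peaks of the target protein and loops between bound loci. SMC1, a subunit of cohesin, was profiled after fixation with formaldehyde and EGS (FA-EGS HiChIP), and CTCF after fixation with formaldehyde alone (FA-HiChIP). Each target had 2 replicates, which the authors pooled before calling peaks and loops, so each value below belongs to a pooled list and has no spread between replicates. Antibody and fixation changed together between the targets, and the study lists more sequencing reads for SMC1 than for CTCF. Antibody, fixation and depth therefore cannot be told apart in any comparison of SMC1 with CTCF. All samples came from this 1 cell line and carried no genetic change.

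Histones are the proteins that DNA is wrapped around. H2A, H2B, H3 and H4 form the core of the nucleosome, and H1 linker histones bind the DNA between cores. Most genes in this cluster are replication-dependent, meaning that they are transcribed mainly in S phase. Such genes have no introns in their main transcript and end their mRNA in a stem-loop instead of a poly(A) tail. They are transcribed within nuclear bodies called histone locus bodies. Cohesin extrudes loops of chromatin, and CTCF bound to its motif stops it, so loops often end at CTCF sites whose motifs point towards each other.

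The labels of the loop lists were checked before use. Under the SMC1 label there were 28012 loops and under the CTCF label 80487. The study states these loop numbers for the opposite targets. Under the CTCF label, 3745 loops (4.65%) had no CTCF peak at either anchor, whereas none lacked an SMC1 peak. Under the SMC1 label, 11 loops had no SMC1 peak at either anchor and none lacked a CTCF peak. Both the loop numbers and the peaks at the anchors thus matched the lists with their labels exchanged. No reassignment was made, and loops are given below by the label of their list, for both lists side by side. The label of a list is therefore not taken as the target of its loops. Peaks at marker genes were checked against the labelled cell type. Of 8 B cell markers, 8 had an SMC1 peak and 5 a CTCF peak within 1 kb of their start, and of 8 markers of other cell types 1 and 2 did. A peak is not a measure of expression.

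The 53 genes fell into 3 sub-clusters, split where neighbouring starts lay at least 200 kb apart. Sub-cluster 1 held 32 genes from H1-1 to H4C8 over 268 kb. Sub-cluster 2 held 5 genes from H2BC11 to H2AC12 over 14.3 kb, 847 kb further on. Sub-cluster 3 held 16 genes from H2BC13 to H2BC17 over 85.5 kb, after a gap of 661 kb. The genes were short, with a median annotated length of 495 bp. Most members were thus shorter than the SMC1 peaks at their starts.

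SMC1 peaks lay at most histone gene starts. Within 1 kb of the start, 45 of 53 genes had an SMC1 peak, or 84.9% (95% Wilson interval from 72.9% to 92.1%), against 56.2% of all protein-coding genes. Neighbouring genes shared peaks, so the strongest peaks at these 45 starts were 32 distinct intervals. Their fold enrichment, the signal at the summit relative to the background around it, was low. Its median was 3.55 (95% interval from the ranks, 3.11 to 3.93), against 4.38 at all starts with an SMC1 peak. Their median -log10 q-value, the significance that the peak caller gave, was 30.7, equal to that of all starts with a peak, and their median width was 1078 bp against 954 bp. No set test was made, and neighbouring genes are not independent, so these intervals cover counting error only.

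**Figure D1:**
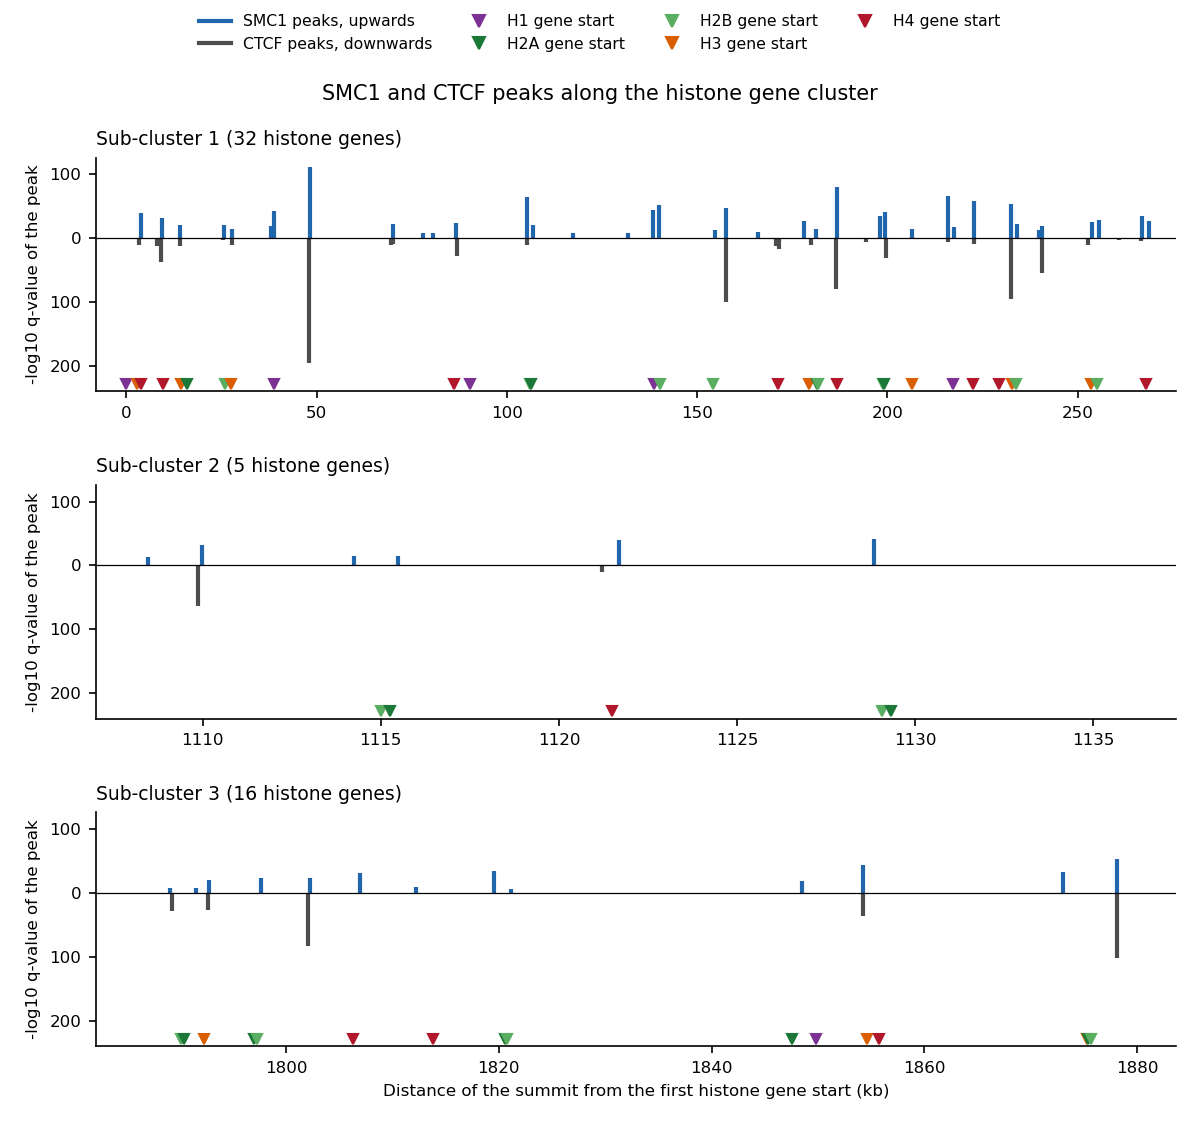
Peaks of SMC1 (blue, upwards) and CTCF (grey, downwards) along the 3 sub-clusters, at the distance of their summit from the start of H1-1 in kb (x axis), with the -log10 q-value as length from the line at 0 (y axis); triangles mark gene starts by class. The CTCF bar of 195 beyond H1-2 lies between genes, and the tallest CTCF bars at gene starts belong to H3C7 (95.5) and H4C5 (79.5).

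Among the core histone genes, H4C5, which encodes histone H4, had the most significant SMC1 peak of all 53 genes, with a -log10 q-value of 80.5, at a fold enrichment of 5.17. Its summit lay 111 bp upstream of the start. The weakest peak at an H4 gene was that of H4C12, with a fold enrichment of 2.53 and its summit 1564 bp downstream of the start. Of the 12 H4 genes 9 had an SMC1 peak, and their median fold enrichment was 4.62. H3C7 had the strongest peak among H3 genes, with a -log10 q-value of 53.9 and a fold enrichment of 4.23, and H3C4 the weakest, at 14.5 and 2.40. Of the 10 H3 genes 9 had an SMC1 peak, at a median fold enrichment of 3.43. H3 and H4 thus spanned nearly the whole range of SMC1 strength seen in the cluster, and the median of H4, but not that of H3, was above that of all starts.

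H2A and H2B genes had SMC1 peaks almost without exception, at 10 of 11 and 13 of 14 starts. Their median fold enrichments were 3.16 and 3.53. H2AC6 and H2BC4, which start 219 bp apart and point away from each other, shared the strongest peak, with a -log10 q-value of 64.2 and a fold enrichment of 4.13. The weakest lay at the pair H2AC13 and H2BC13, with -log10 q-values of 7.61 and 8.30. There were 9 such divergent pairs of an H2A and an H2B gene, with 170 to 251 bp between starts, and in 7 the same SMC1 peak was the strongest at both genes. H2AC13 and H2BC13 had different strongest peaks, and H2AC17 and H2BC17 had none. A CTCF peak lay at both genes in 3 of the 9 pairs, namely H2BC4 and H2AC6, H2BC8 and H2AC8, and H2BC13 and H2AC13.

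SMC1 peaks lay at 4 of the 6 linker histone genes. H1-3 had the strongest SMC1 peak of the class by -log10 q-value, 65.3, at a fold enrichment of 5.36, with its summit 1204 bp downstream of the start and so past the end of the 776 bp gene. H1-2 had the highest fold enrichment of all 53 genes, 5.94, in a peak of 544 bp over its start. H1-4 had a peak over its start with a fold enrichment of 3.69, and H1-5 the weakest of the class, at 2.68. H1-1 and H1-6 had no SMC1 peak. H1-6 is the testis-specific linker histone, and neither SMC1 nor CTCF had a peak within 1 kb of its start. The other testis-expressed histone genes of chromosome 6, H2AC1 and H2BC1, start outside the interval and had no peak of either target.

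There were 8 genes that had no SMC1 peak within 1 kb of their start: H1-1, H1-6, H4C4, H4C7, H4C13, H3C12, H2AC17 and H2BC17. Of these, H4C4 alone had CTCF peaks, 2 of them, the stronger with a fold enrichment of 4.47 and its summit 311 bp upstream. H3C12, H2AC17 and H2BC17 lie side by side at the end of sub-cluster 3, with starts within 319 bp of each other. SMC1 peaks with -log10 q-values of 32.7 and 52.96 lay just beyond their windows. Their summits were 2302 bp from the H3C12 start and 2465 bp from the H2BC17 start. Within 2 kb of the start, 49 of the 53 genes had an SMC1 peak. Since the authors kept alignments with a MapQ over 30, near-identical gene copies could lose reads, and the sequence within 1 kb of each start was therefore compared with the rest of the genome. At the 8 genes without an SMC1 peak, between 0% and 6.56% of 50-mers occurred elsewhere. Over all 53 genes the median was 1.64% and the maximum 23.6%, at H4C11, and at 42 genes no 100-mer was repeated. Among the 17 histone genes of these names elsewhere, mainly on chromosome 1, the median was 64.0%. There H3C14, H3C15, H4C14, H4C15 and H2BC12L were repeated in full and had no peak of either target, so a missing peak there says nothing about occupancy. In all, 9 of these 17 had an SMC1 peak and 6 a CTCF peak.

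CTCF peaks lay at fewer starts, and their share differed between the classes of gene. Within 1 kb, 26 of 53 starts had a CTCF peak, or 49.1% (36.1% to 62.1%), against 37.2% of all protein-coding genes. Within 0.5 kb these shares were 34.0% and 30.9%. They lay at 8 of 10 H3 and 8 of 12 H4 genes, and at 1 of 6 H1, 4 of 11 H2A and 5 of 14 H2B genes. For H3 and H4 together this came to 72.7% (51.8% to 86.8%), and for H1, H2A and H2B to 32.3% (18.6% to 49.9%). SMC1 showed no such split, at 81.8% and 87.1%. The split also varied with position. In sub-cluster 1 CTCF peaks lay at 13 of 15 H3 and H4 genes and 8 of 17 others, but in sub-cluster 3 at 2 of 6 and 2 of 10. The strongest peaks at the 26 starts were 20 distinct intervals, so genes that share a peak are not independent. No test of the difference between the classes was made. The CTCF peaks were weak, with a median fold enrichment of 4.32 against 5.42 at all starts with a CTCF peak, and a median -log10 q-value of 13.03 against 24.2.

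A few starts held strong CTCF peaks. The strongest by -log10 q-value, 95.5 at a fold enrichment of 9.62, lay at H3C7 and also within 1 kb of its divergent neighbour H2BC9. H4C5 followed with 79.5 and the highest fold enrichment of the cluster, 9.82. After these came H4C2 with a -log10 q-value of 38.1 and a fold enrichment of 6.86, and H3C11 with 36.9 and 5.96. The pair H2BC8 and H2AC8 shared a peak at 30.7 and 6.14, H4C3 had one at 28.5 and 6.20, and H2BC13 and H2AC13 shared one at 27.6 and 4.95. The weakest CTCF peak was that of H2BC3, at 3.68 and 2.62. H4C5 and H3C7 were thus strong for both targets, whereas H2BC4 and H2AC6, with the third-strongest SMC1 peak, had a CTCF peak of only 10.3 on the -log10 q scale.

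**Figure D2:**
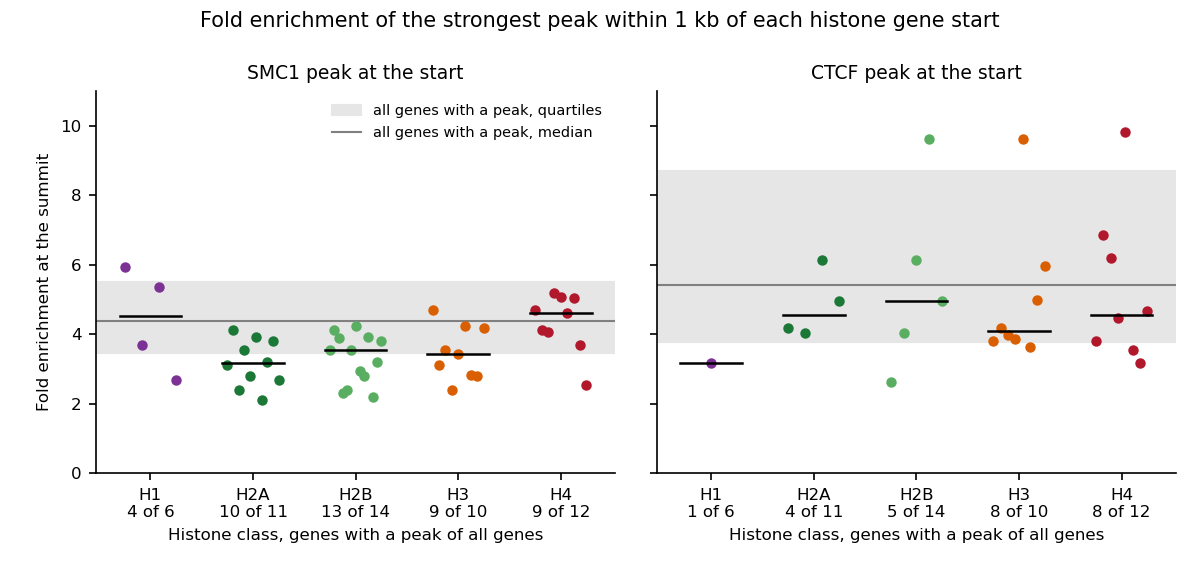
Fold enrichment at the summit (y axis, from 0) of the strongest SMC1 peak (left) and CTCF peak (right) within 1 kb of each histone gene start, by class (x axis, with genes with a peak of all genes); points are genes, black bars class medians, and the grey band and line the quartiles and median of all protein-coding genes with a peak. Most SMC1 points of H2A, H2B and H3 lie below the line of 4.38, and the CTCF points above 9 belong to H3C7, H2BC9 and H4C5.

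Taking both targets, 25 starts had SMC1 and CTCF peaks (47.2%, against 35.4% of all genes), 20 had SMC1 alone (37.7% against 20.8%), 1 had CTCF alone and 7 had neither (13.2% against 42.0%). The shares with both and with SMC1 alone thus exceeded those of all genes. SMC1 alone held 8 of 14 H2B, 6 of 11 H2A, 3 of 6 H1 and 2 of 12 H4 genes but 1 of 10 H3 genes. The 19 other protein-coding genes of the interval had similar shares. Of these, 42.1% had both, 36.8% SMC1 alone and 21.1% neither. Where both were present, the fold enrichment of CTCF was higher than that of SMC1 at 16 of 25 starts, and its -log10 q-value at 7. Over all protein-coding genes these were 4685 and 2979 of the 7072 starts with both, so a higher CTCF fold enrichment was not particular to the cluster. Summits tended to lie in or past the gene. The summit of the strongest SMC1 peak was downstream of the start at 29 of 45 genes (64.4%, against 53.9% of all genes with a peak) and that of CTCF at 17 of 26 (65.4% against 50.6%). For CTCF, 11 of the 17 lay inside the gene itself.

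The promoters of the gene with the strongest SMC1 peak in each class are printed below to show which known histone promoter elements each class holds. They are the 150 bases before the RefSeq start in hg38, 5′ to 3′ along the gene. Capitals mark the words TATAAA (bound by TBP in core promoters), CCAAT (bound by NF-Y), TTTGCAT (from the octamer bound by OCT-1 in H2B promoters), GGTCC (core of the H4 subtype element bound by HINFP) and AAACACA (H1 box), each searched on both strands.
H1-3 (chr6:26234988-26235137, minus strand): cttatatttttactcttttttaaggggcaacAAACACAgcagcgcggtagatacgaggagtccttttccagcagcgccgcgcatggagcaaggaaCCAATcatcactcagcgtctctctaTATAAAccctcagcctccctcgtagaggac
H2AC6 (chr6:26124022-26124171, plus strand): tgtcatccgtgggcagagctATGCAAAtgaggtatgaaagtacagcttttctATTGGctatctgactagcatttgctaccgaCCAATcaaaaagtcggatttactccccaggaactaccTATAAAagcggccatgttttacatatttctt
H2BC4 (chr6:26123927-26124076, minus strand): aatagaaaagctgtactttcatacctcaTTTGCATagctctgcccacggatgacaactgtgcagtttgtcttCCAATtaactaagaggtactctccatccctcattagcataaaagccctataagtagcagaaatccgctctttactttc
H3C7 (chr6:26250636-26250785, minus strand): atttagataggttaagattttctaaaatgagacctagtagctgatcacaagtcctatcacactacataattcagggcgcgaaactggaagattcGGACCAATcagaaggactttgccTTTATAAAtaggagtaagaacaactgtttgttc
H4C5 (chr6:26204460-26204609, plus strand): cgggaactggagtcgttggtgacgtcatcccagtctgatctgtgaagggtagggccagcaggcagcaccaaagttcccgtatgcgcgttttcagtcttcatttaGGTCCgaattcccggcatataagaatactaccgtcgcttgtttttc
The H3C7 and H4C5 stretches lie wholly inside the SMC1 peak of their gene. Those of H1-3, H2AC6 and H2BC4 hold no base of it, because the peak lies downstream of the H1-3 start and, for the pair, on the H2BC4 side of both starts. A second, weaker SMC1 peak at H1-3, with a -log10 q-value of 17.3 and a fold enrichment of 2.87, covers its start and the whole stretch shown. The H2AC6 and H2BC4 stretches overlap on opposite strands, and the octamer word in both is the same site. In H3C7 the word GGACC, the reverse complement of GGTCC, overlaps CCAAT, and TATAAA overlaps its own reverse complement. TATAAA is absent from the stretches shown for H2BC4 and H4C5.

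The promoter words differed by class. RefSeq promoters were found for 48 of the 53 genes, and the 250 bases before the start were searched. Those of H2AC12, H3C11, H3C12, H4C1 and H4C3 were not in the table used. TATAAA was present in 32 of 48 promoters (66.7%, against 9.34% of 15315 protein-coding promoters) and in every class. CCAAT was present in 41 of 48 (85.4% against 34.8%), in all 38 promoters of H1, H2A, H2B and H3 genes searched but in 3 of 10 of H4. TTTGCAT was present in 8 of 10 H2A and 11 of 14 H2B promoters and in no other, 39.6% in all against 3.45%. Divergent H2A and H2B genes start 170 to 251 bp apart, so the stretches searched for a pair largely overlap. For every word, a site in such an overlap was counted for both genes, so these promoters are not independent. GGTCC was present in 9 of 10 H4 promoters and in 15 of all 48 (31.3% against 45.7%). AAACACA was present in 6 of 6 H1 promoters, H1-6 among them, and in no other (12.5% against 3.69%). The H2BC6 promoter in the table starts 11702 bp from the GENCODE start used for the peaks, and the H4C8 one 104 bp from it. A match of letters is a description and not a site of binding.

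**Figure D3:**
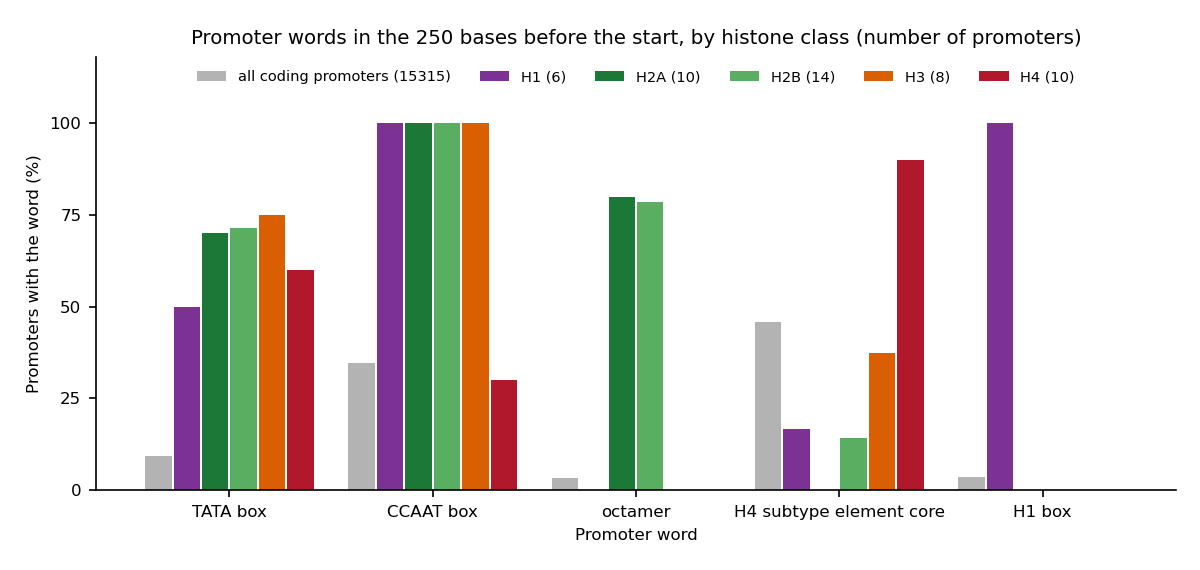
Share of promoters (y axis, percent, from 0) that hold each of 5 words in the 250 bases before the start (x axis), by histone class in colour and for all 15315 protein-coding promoters in grey; numbers of promoters are in brackets. Among the classes, the octamer word appears in the H2A and H2B bars alone and the H1 box word in the H1 bar alone, beside the low grey bars of 3.45% and 3.69%.

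Over the whole interval of 2.1 Mb, SMC1 had 156 peaks and CTCF 95, counted by summit. The median of 1432 windows of this length on all chromosomes was 62 and 39, and 72 windows held more SMC1 and 100 more CTCF peaks. The interval also held 72 protein-coding starts, against a median of 9. Of its peaks, 41 SMC1 and 21 CTCF peaks lay within 1 kb of a histone gene start. The strongest peaks did not. The most significant SMC1 peak, with a -log10 q-value of 225, lay 46207 bp from the start of ZNF184. The most significant CTCF peak, at 636 and a fold enrichment of 18.6, lay 25124 bp from H1-1, before sub-cluster 1. An SMC1 peak of 214 lay over the same site. Further peaks of both targets lay about 120 kb before H2BC13, with -log10 q-values of 179 for SMC1 and 261 for CTCF. The other leading SMC1 peaks lay 1512 bp from the start of ABT1 (137) and 10781 bp from that of H2AC12 (130). The remaining leading CTCF peaks lay 24277 bp from ABT1 (292), 175682 bp before H2BC11 (205, at the highest fold enrichment of the interval, 21.7) and 9375 bp from H1-2 (195). The median -log10 q-value of CTCF peaks was 12.6 at histone gene starts and 34.2 away from protein-coding starts in the interval. For SMC1 it was 25.8 and 16.5, the opposite order. At the other protein-coding starts of the interval these medians were 17.8 for CTCF and 23.4 for SMC1. Neither order was thus particular to histone gene starts.

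CTCF binds DNA through a motif, and most CTCF peaks at histone gene starts had no strong match to it. A motif of 19 positions and 15.6 bits was learned from the 3000 CTCF summits with the highest -log10 q-value on the other chromosomes, with the most frequent bases TGGCCACCAGGGGGCGCCA. A score of at least 10 bits was reached in 3 of the 21 CTCF peaks at histone gene starts (14.3%, interval from 4.98% to 34.6%), against 50.7% of all CTCF peaks at protein-coding starts and 51.2% of all CTCF peaks. Away from protein-coding starts in the interval it was reached in 29 of 64 (45.3%). Peak strength moved with this, and its part was not tested. Among all CTCF peaks at protein-coding starts with a -log10 q-value within the range of these 21, the share was 41.7%. With a minimum of 7 bits, 10 of the 21 had a hit (47.6%), against 74.1% of all at protein-coding starts. None of the 21 had a hit of 10 bits within 50 bp of its summit (upper bound of the interval 15.5%), against 13.5% of all at protein-coding starts and 6 of 64 (9.38%) away from protein-coding starts in the interval.

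Of the CTCF peaks with the highest -log10 q-value in the interval, 4 of 5 held the motif, and these sites are shown in hg38, 5′ to 3′ on the strand of the motif. The peak 120 kb before H2BC13 had a best score of 7.10 bits and is not printed. Of the sites shown, the site before H1-1 lies 5 bp from the summit of its peak, and the site beyond H1-2 lies 1129 bp from it. The other pair lie over 100 bp away.
Before H1-1 (chr6:25992649-25992667, minus strand): caagctgtagggggcgctg
Before ABT1 (chr6:26572780-26572798, plus strand): tggccacaagggggcgtgc
Before H2BC11 (chr6:26956984-26957002, plus strand): ccgccggcagagggagccc
Beyond H1-2 (chr6:26064707-26064725, plus strand): tgtacgctaggtggcagtc
The 3 peaks at histone gene starts with a hit of at least 10 bits held these sites.
H4C5 (chr6:26204511-26204529, plus strand): gggccagcaggcagcacca
H2AC8 (chr6:26217215-26217233, minus strand): ctagctgcaggtggcgcgg
H3C8 (chr6:26270693-26270711, minus strand): gggccacctgggggcgttt
The H4C5 site, at 11.3 bits, lies within the promoter printed above, on the strand of the gene. Those of H2AC8 and H3C8 scored 13.02 and 13.7 bits. The strongest CTCF peak at a histone gene, that of H3C7, had a best score of 7.03 bits, and that of H4C2 one of 2.29 bits.

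**Figure D4:**
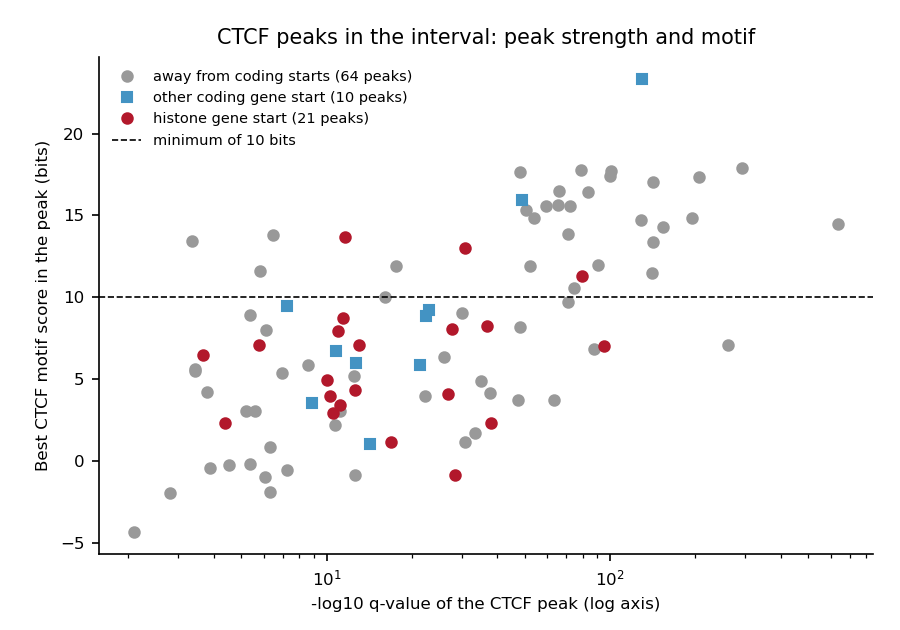
Best CTCF motif score (y axis, bits) against the -log10 q-value (x axis, log scale) of each CTCF peak in the interval; red points are peaks at histone gene starts, blue squares at other protein-coding starts, grey points elsewhere, and the dashed line the minimum of 10 bits. Of the 21 red points 3 lie above the line, and the highest -log10 q-value among these 3 is 79.5.

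The number of histone genes with a loop depended on whether the gene or its start was counted. With an anchor within 1 kb of a histone gene, there were 15 loops labelled SMC1 and 34 labelled CTCF. They reached 16 of 53 genes (30.2%, against 38.4% of all protein-coding genes) and 23 of 53 (43.4% against 63.9%). Longer genes reach more loops, so the count was repeated with the anchor within 1 kb of the start. This gave 14 genes (26.4% against 21.6%) and 22 genes (41.5% against 43.1%). On that count the shares were close to those of all genes. The loops were shorter than most of their lists. The median length of the 15 and 34 loops was 30 kb under the SMC1 label and 32.5 kb under the CTCF label, where the whole lists had medians of 130 and 125 kb. For the 8 and 25 loops at starts it was 57.5 and 35 kb. The ratio of observed to expected read pairs had medians of 3.67 and 2.92 over the 15 and 34 loops and of 4.28 and 2.74 over those at starts, against 4.004 and 4.03 in the whole lists. Both lists hold only loops of 10 to 1000 kb, so contacts between nearest neighbours and those over longer distances could not be seen.

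Under the SMC1 label, 11 of the 15 loops lay in sub-cluster 1 and 4 in sub-cluster 3. Under the CTCF label, 16 of the 34 lay in sub-cluster 1, 3 in sub-cluster 2 and 15 in sub-cluster 3. The loops of sub-cluster 3 reached a larger share of its genes. Under the CTCF label, 15 of its 16 genes had a loop, H4C12 being the exception, against 7 of 32 in sub-cluster 1 and 1 of 5 in sub-cluster 2. Under the SMC1 label these were 8 of 16, 8 of 32 and 0 of 5. The bin with most loops in the list labelled CTCF, 6 loops with 331 read pairs, held the starts of H3C12, H2AC17 and H2BC17. These genes have no peak of either target within 1 kb of their start, but SMC1 peaks of 32.7 and 52.96 on the -log10 q scale lie elsewhere in that 5 kb bin, the second across its edge. The bin of H1-4 and H2BC5 also had 331 read pairs, in 4 loops. No loop in either list reached 24 genes, of which 21 had an SMC1 peak and 13 a CTCF peak. Among these 24 were H4C5 and H1-3, with the strongest SMC1 peaks of the cluster. Of all 53 genes, 45 had an SMC1 peak and 26 a CTCF peak, so the 24 had peaks at about the share of the whole cluster. How many of all protein-coding genes lack a loop in both lists was not counted. Of genes with a CTCF peak at the start, 7 of 26 had a loop at the start in the list labelled CTCF, and of those without a CTCF peak 15 of 27 did. For the list labelled SMC1 these were 9 of 26 and 5 of 27, the opposite order. Peaks and loops both differed by sub-cluster. CTCF peaks lay at 21 of 32 starts in sub-cluster 1 and 4 of 16 in sub-cluster 3. Loops at starts in the list labelled CTCF reached 7 of 32 and 15 of 16. A relation of CTCF peaks to loops was therefore not separated from position. Over the whole lists, every loop labelled SMC1 had a CTCF peak at an anchor, and every loop labelled CTCF an SMC1 peak. By the study's account, called loops have an anchor enriched in the target protein. Of genes with an SMC1 peak at the start, 17 of 45 had a loop at the start in the list labelled CTCF. Without one, 5 of 8 did. In the list labelled SMC1 these were 11 of 45 and 3 of 8. Whether the way the loops were called bears on any of these orders was not tested. The shares over all genes were not computed.

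Some loops linked histone genes to each other within a sub-cluster. Of the 34 loops labelled CTCF, 15 had a histone gene at both anchors, 5 of them in sub-cluster 1 and 10 in sub-cluster 3. The list labelled SMC1 had 2, joining H4C6 to H3C7 and H2BC9, and H2AC14 and H2BC14 to H3C12, H2AC17 and H2BC17. The strongest in the list labelled CTCF joined H2AC6 to H1-4 and H2BC5 over 30 kb, with 136 read pairs against 34.4 expected, a ratio of 3.96. A loop of 105 read pairs joined the bin with the starts of H2AC6 and H2BC4 to the same bin. In sub-cluster 3, 94 read pairs joined H1-5 and H2AC16 to H3C12, H2AC17 and H2BC17, at a ratio of 2.14. No loop in either list had a histone gene of a different sub-cluster at its other anchor. The limit of 1000 kb fixed part of this. It left out all 512 gene pairs between sub-clusters 1 and 3, and within it lay 95 of 160 pairs between sub-clusters 1 and 2 and all 80 between sub-clusters 2 and 3. None of the loops had another protein-coding start at its partner anchor, though this share was not computed over the whole lists. At the histone gene anchor itself, 2 loops labelled SMC1 and 1 labelled CTCF ended in the bin at the end of the long H2BC4 annotation. That bin also lay within 1 kb of the start of HFE, which is not a histone gene.

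Most loops labelled CTCF that joined histone genes had no CTCF peak. Of all 34, 13 had none at either anchor (38.2%, interval from 23.9% to 55.0%), against 4.65% of the whole list, and 9 of the 13 were among the 15 that joined histone genes. The 2 such loops labelled SMC1 had a CTCF peak. All 34 had an SMC1 peak at an anchor. All 15 loops labelled SMC1 had a peak of each target. With the labels exchanged, the same 34 loops would be those of SMC1. A motif of at least 10 bits at both anchors was present in 1 loop of the list labelled CTCF, with the motifs pointing towards each other, from H2AC14 and H2BC14 to the bin next to H2BC17, over 80 kb with 53 read pairs. None of the 15 loops labelled SMC1 had a motif at both. Only the best hit of each CTCF peak was counted, and 51.2% of all CTCF peaks had one of at least 10 bits. The share of loops with a motif at both anchors was not computed over the whole lists, so these counts cannot be called low.

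**Figure D5:**
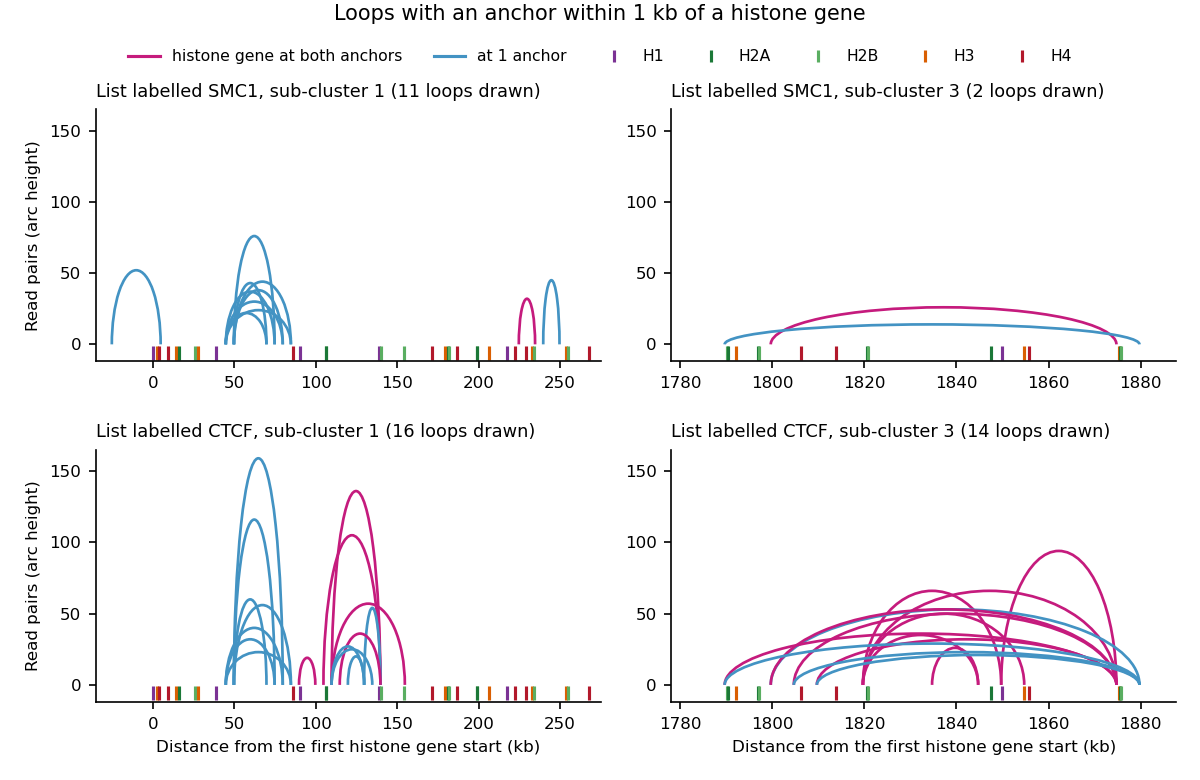
Loops with an anchor within 1 kb of a histone gene in sub-cluster 1 (left) and sub-cluster 3 (right), for the list labelled SMC1 (top) and the list labelled CTCF (bottom), drawn between bin centres in kb from the start of H1-1 (x axis), with the read pairs as arc height (y axis); pink arcs have a histone gene at both anchors, and loops of sub-cluster 2 and loops over 100 kb are left out. The tallest blue arc, of 159 read pairs, ends inside the long H2BC4 annotation, and the pink arcs are mostly in the bottom row.

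The loops with most read pairs touched the cluster at an annotation rather than a start. H2BC4 is annotated over 37610 bp, far longer than most members. The loop with most read pairs in the list labelled CTCF, 159 against 23.9 expected, joined a bin inside H2BC4 to the bin that holds the strong CTCF peak 9375 bp from H1-2, over 30 kb. A second joined the neighbouring bin with 116 read pairs. The loop labelled SMC1 with most read pairs, 76, joined the same 2 bins as that second loop. In all, 8 of the 15 loops labelled SMC1 and 8 of the 34 labelled CTCF reached H2BC4 away from its start. The second loop labelled SMC1, of 52 read pairs, joined H3C1 and H4C1 to the bin of the strongest CTCF peak before H1-1, over 30 kb. The third, of 45 read pairs, ended in a bin within 1 kb of H3C8 that does not hold the gene or its start.

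Long loops were few. In each list 2 of the loops at histone genes spanned over 100 kb. Under the SMC1 label, 16 read pairs joined H2AC13, H2BC13 and H3C10 to a bin 7.44 kb beyond H2AC12 over 650 kb, and 12 joined H3C12, H2AC17 and H2BC17 to the same bin over 735 kb. The first was also in the list labelled CTCF, with 14 read pairs. These loops thus ran from sub-cluster 3 to the edge of sub-cluster 2, at the SMC1 peak of 130 and a CTCF peak of 142, without a histone gene within 1 kb of the far anchor. The list labelled CTCF also held a loop of 520 kb and 23 read pairs from H2BC11 to a bin 319 kb beyond H4C8, with the highest ratio of observed to expected read pairs among its loops at histone genes, 7.01. Between the lists, 10 loops were identical, or 66.7% of the 15 and 29.4% of the 34, and allowing anchors to differ by 15 kb 73.3% and 47.1% were matched. The same shares over the whole lists were not computed, so these cannot be called high or low.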

How the data were processed

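HiChIP peaks and loops of the HG00731 LCL were analysed for SMC1 and CTCF, with 2 replicates per target, grouped by the labels. Alignment by the authors was to hg38 (BWA-MEM 0.7.17). Reads with a MapQ over 30 were kept, duplicates removed and replicates pooled. Peaks came from MACS3 3.0.1 without input, with 200 bp extension and a q-value limit of 0.01. The submitters' processing notes also name bcl2fastq 2.17 and deepTools. The authors deposited for each peak the fold enrichment at its summit, which is the ratio of its signal to the local background, and the -log10 of its q-value. For loops the deposited columns were the count of read pairs joining 2 bins of 5 kb, the expected number from MAPS, and the q-value (false discovery rate) of the bin pair. The lists hold no depth per replicate, and none was used here. The read pairs of all loops summed to 788356 under the SMC1 label and 2666327 under the CTCF label.

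From these lists, peaks were assigned to genes whose GENCODE start lay within 1 kb of any base of the peak, and loops to genes within 1 kb of an anchor. With several peaks, the 1 with the highest -log10 q-value was used. With 1 pooled list per target there was no test. Shares carry Wilson intervals and medians rank intervals, at 95%, for counting error only. CTCF motifs were learned by expectation maximization with at most 1 site in the 150 bases either side of a summit. This model replaced a first one with a site in every sequence of 50 bases either side, after that gave only 7.75 bits. Promoters are from RefSeq (hg38), which matched 48 of 53 members by symbol. Overlaps, repeated 50-mers and motif learning were tested on simulated data. The random seed was 11. Scripts ran in Python 3.11.15 with pandas 2.3.3, NumPy 2.4.6, Matplotlib 3.10.9, SciPy 1.17.1 and Numba 0.67.0.

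The members, lists and settings were chosen with earlier results of these data known. Members are named as the highest and lowest by SMC1 -log10 q-value in each class, those without a peak, the 10 highest for CTCF, and the testis-expressed genes. Peaks are named as the 5 of each target with the highest -log10 q-value in the interval, and loops as the 5 of each list with most read pairs and the 3 longest. Other genes and loops were named after their values were seen. The alternatives tried were other windows, thresholds, start definitions, anchor rules, sub-cluster gaps and motif minimums, the loop lists exchanged, and the first motif model, which was added after seeing the data.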

Additional observations from a re-analysis of the deposited data

How the results depend on the processing

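Both targets have pooled lists without values per replicate, so nothing could be left out in turn. No paired analysis was possible because the lists carry no replicate columns. Of the alternatives, 41 left a count within 1.5 times its value and 11 did not. SMC1 peaks lay at 38 to 49 starts, CTCF peaks at 18 to 33 and both at 20 to 26 under every window, threshold and start definition tried. For SMC1 the share of histone genes stayed at least 20 percentage points above that of all genes. For CTCF it came close to it within 0.5 kb (34.0% against 30.9%) and with the starts of all transcripts (49.1% against 44.2%). The interval held 114 to 156 SMC1 and 69 to 95 CTCF peaks. The count of loops depended on the rule. In the list labelled SMC1 the 15 loops became 8 with the anchor within 1 kb of the start, 8 with the start inside the anchor, 7 at an observed over expected ratio of at least 4, and 34 with the lists exchanged. In the list labelled CTCF the 34 became 21 with the start inside the anchor, 5 at a ratio of at least 4, 15 at a false discovery rate under 1e-6, and 15 with the lists exchanged. Loops joining histone genes of 1 sub-cluster became 1 in each list at a ratio of at least 4, from 2 and 15. The count between sub-clusters was 0 throughout, but the limit of 1000 kb on loops in both lists held under every setting. CTCF peaks at histone gene starts with a motif numbered 10 at a minimum of 7 bits, 2 at 13 bits, 3 with the motif from 10000 summits and 4 with the first model. The bin size of 5 kb limits the loops, since several genes share a bin.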

Other observations

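Genes outside the cluster give a frame for these values. The 12 genes listed as factors of histone gene expression, such as NPAT, the coactivator of histone genes at the histone locus body, and SLBP, which binds the stem-loop of histone mRNA, had an SMC1 peak at 12 of 12 starts and a CTCF peak at 8. At NPAT the -log10 q-value was 62.6 for SMC1 and 145 for CTCF. At LSM11, a subunit of the U7 particle that processes histone mRNA, it was 91.9 and 281. SLBP had an SMC1 peak of 7.87 and no CTCF peak.

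Of 12 replacement histone genes, which are expressed outside S phase, 9 had an SMC1 peak and 4 a CTCF peak. H2AZ2 had -log10 q-values of 135 for SMC1 and 239 for CTCF, H2AX 79.7 and 163, and H2AZ1 63.7 and 168. These 3 exceeded every start in the cluster for CTCF, where the highest was 95.5. H3-3A and H3-3B had SMC1 peaks of 9.15 and 27.9 and no CTCF peak. Among the 19 other protein-coding genes of the interval, 15 had an SMC1 peak and 8 a CTCF peak. ABT1 had the strongest of both, at 137 and 130.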
